A study of Mus musculus with 2 samples.

Results

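The genes of cholesterol synthesis and of fatty acid synthesis and storage were examined in single mouse pseudoblastocysts, which are cavity-bearing embryos grown from 1 zygote or 1 isolated blastomere. A list of 38 genes was used, out of 52366 in the table, chosen by their roles and matched by symbol, and all 38 were present: 18 enzymes of cholesterol synthesis, 5 regulators that sense sterols, and 15 genes of fatty acid synthesis, fatty acid modification, triacylglycerol and lipid droplets. The embryos were of 4 kinds with 6 embryos each, from B6D2F1 oocytes fertilised in vitro with ICR sperm, freed of the zona pellucida and cultured to 96 hours after insemination: 1C, a whole zygote freed of its zona at 5 hours, and 2CB, 4CB and 8CB, each from a single blastomere taken from a 2-cell embryo at 24 hours, a 4-cell embryo at 48 hours or an 8-cell embryo at 48 hours. Embryos were taken for having a cavity, whatever their inner cell mass, so some could be vesicles of trophoblast alone. The measurement was CEL-Seq2, which tags the 3′ ends of polyadenylated RNA and is designed to count molecules by unique molecular identifiers (UMIs). Per the study's methods, duplicate reads that shared a UMI were merged and counted once. Levels below are CPM, a gene's UMIs per 1000000 UMIs of that embryo.

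Cholesterol is built from acetyl-CoA by way of mevalonate, squalene and lanosterol. When sterols in the endoplasmic reticulum are scarce, the escort protein SCAP carries the SREBP transcription factors to the Golgi, where they are cut and released to activate the genes of sterol and fatty acid synthesis, whereas INSIG proteins hold SCAP back when sterols are plentiful. Fatty acids are likewise built from acetyl-CoA, then desaturated and elongated, and are stored as triacylglycerol in lipid droplets, which oocytes and early embryos contain.

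Promoters of 30 of the 38 genes were found in the RefSeq promoter table (build GRCm38.p6), and the 250 bases before each start were searched on both strands for letters that the SREBP factors and their usual partners are known to bind. The letters were TCACNCCAC for a sterol regulatory element, CCAAT for the NF-Y box and GGGCGG for the Sp1 box. Counted at any listed start of a gene, CCAAT was present in 23 of the 30 genes, or 76.7%, against 37.5% of all 27025 genes in the table and 40.3% of the 4658 genes that were also tested below. GGGCGG was present in 24, or 80%, against 35.4% of all genes and 67.8% of the tested genes. TCACNCCAC was present in 1 gene, Hmgcs1, where it lay 137 bases before the start, against 1.22% of all genes. With the shorter core CACNCCAC, chosen after those counts were seen and contained in the longer motif, 3 genes matched (Acat2, Hmgcs1 and Insig1), or 10%, against 6.05% of all genes. The stretches before 4 starts are printed for these reasons. Hmgcs1 held the full motif, and Srebf2 and Mvk had the largest fold changes among the 27 listed genes tested below. Plin3 is the lipid droplet gene whose groups did not overlap. Capitals mark any of the 4 motifs, read 5′ to 3′ along the gene's strand, and bases of annotated exons were left out. The stretches reach back 200 bases from the start, and for Srebf2 the 88 bases nearest the start were exonic. Its matches to GGGCGG or the reverse at 79, 52 and 34 bases before the start lie in those exonic bases, and the match at 211 lies farther back than the printed stretch.
Hmgcs1, chr13:119690151-119690350, plus strand: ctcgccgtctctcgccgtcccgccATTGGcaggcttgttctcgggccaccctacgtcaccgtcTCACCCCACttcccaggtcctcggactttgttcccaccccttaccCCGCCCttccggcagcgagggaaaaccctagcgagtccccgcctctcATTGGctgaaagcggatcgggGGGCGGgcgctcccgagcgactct
Srebf2, chr15:82147069-82147180, plus strand: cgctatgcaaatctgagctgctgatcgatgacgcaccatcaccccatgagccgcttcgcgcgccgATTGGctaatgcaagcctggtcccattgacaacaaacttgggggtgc
Mvk, chr5:114444069-114444268, plus strand: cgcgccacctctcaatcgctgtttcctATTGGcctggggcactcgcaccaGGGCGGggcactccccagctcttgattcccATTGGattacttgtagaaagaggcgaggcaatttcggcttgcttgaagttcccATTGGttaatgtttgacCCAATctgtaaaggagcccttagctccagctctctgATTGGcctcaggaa
Plin3, chr17:56290512-56290711, minus strand: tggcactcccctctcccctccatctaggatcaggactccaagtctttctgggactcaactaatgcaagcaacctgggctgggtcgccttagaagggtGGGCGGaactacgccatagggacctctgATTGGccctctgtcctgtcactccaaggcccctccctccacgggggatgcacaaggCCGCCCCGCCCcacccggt
CCAAT or its reverse ATTGG appeared in each of these 4 stretches. A match gives letters only and no measure of binding.

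The labels place the embryos in 2 mixed libraries, or pools, of 1C with 8CB and of 2CB with 4CB, so a difference between those pairs of stages and a difference between pools cannot be told apart. Totals ran from 70941 to 1507471 UMIs per embryo, with medians of 313283 in the first pool and 388686 in the second. The pools as a whole held 2952530 and 6658255 UMIs, so equal raw UMIs mean a lower CPM in the second. Of the trophectoderm markers, all 10 were detected, and their summed level was 748 to 1091 CPM for 1C, 810 to 1215 for 8CB, 3004 to 5912 for 2CB and 3209 to 6321 for 4CB. Elf5 was at 0 in every 1C embryo. Between the pools, 7 of these 10 were called higher in 2CB and 4CB, Hand1 and Tfap2c were called lower (log2 fold changes of -4.64 and -0.74), and Tead4 was not called, where 31.3% of all tested genes were called higher and 24% lower. The sum rested largely on Gata3 and Krt18, with 9412 and 7414 UMIs in 2CB and 4CB against 668 and 120 in 1C and 8CB. The sums of 6 primitive endoderm and of 6 epiblast markers overlapped between the pools, although all 7 tested members were called, where 55.3% of all tested genes were: Sox17, Pdgfra, Sox2 and Tdgf1 higher, and Gata6, Nanog and Esrrb lower. Pou5f1, a defining gene of the inner cell mass, did not exceed 16.2 CPM in any embryo, at 33 UMIs in all beside 2957 for Nanog. In most 4CB and 8CB embryos with a cavity that were stained separately, the paper saw its protein, OCT4, in the inner cell mass. Whether the assay undercounts Pou5f1 was not tested. Of 7 cumulus cell markers, 4 were at 0 throughout, and the 1 that was tested, Star, which carries cholesterol into mitochondria, was higher in 2CB and 4CB (log2 fold change 1.24 ± 0.40, SE, edgeR adjusted p = 0.0105). Star, 5 of the 10 trophectoderm, 2 of the 3 tested primitive endoderm and 2 of the 4 tested epiblast markers passed the low-count filter only through 2CB and 4CB. The summed level of the 18 cholesterol enzymes was higher in the same pool as the trophectoderm sum and Star, and whether they vary together within a pool was not tested. The part of cell composition in the results was not tested. In whole embryos, fewer cells of a type and less RNA per cell cannot be told apart.

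The summed levels of the cholesterol enzymes and of the fatty acid and droplet genes were higher in 2CB and 4CB pseudoblastocysts than in 1C and 8CB. The 18 cholesterol enzymes together made 497 to 681 CPM in 1C (median 637) and 527 to 719 in 8CB (median 606), against 1361 to 2626 in 2CB (median 1882) and 1468 to 2142 in 4CB (median 1844). Pmvk alone was a large part of this sum in some embryos, at 949 of 2626 CPM in 2CB embryo 6 and 217 of 1468 in 4CB embryo 2. The 15 fatty acid and droplet genes made 686 to 1289 CPM for 1C and 744 to 1043 for 8CB, against 1551 to 2692 for 2CB and 1551 to 2121 for 4CB. For both sums the lowest 2CB or 4CB embryo lay above the highest 1C or 8CB embryo, while 1C and 8CB overlapped each other, as did 2CB and 4CB.

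**Figure D1:**
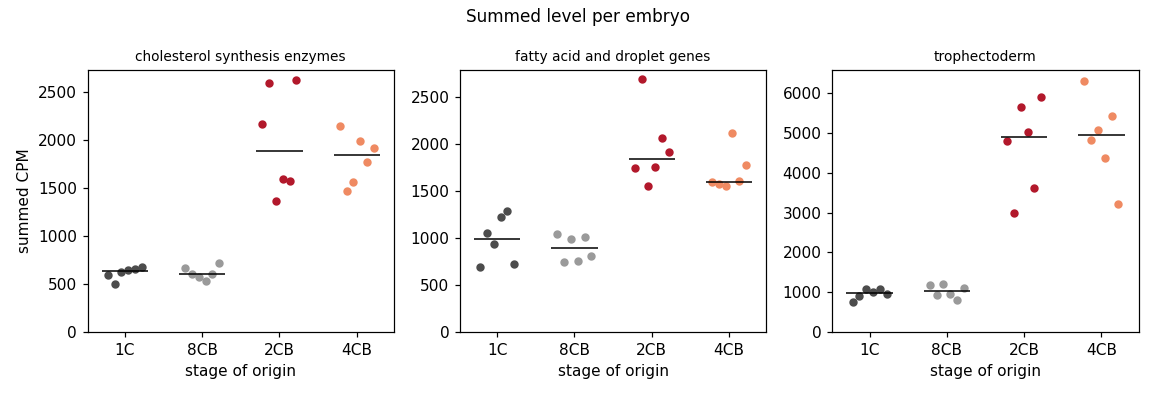
Summed CPM per embryo (vertical axis) by stage of origin (horizontal axis) for the 18 cholesterol synthesis enzymes, the 15 fatty acid and droplet genes and the 10 trophectoderm markers; points are embryos, 6 per stage, and lines are medians. In all 3 panels the 2CB and 4CB points lie above every 1C and 8CB point, with cholesterol enzyme medians of 1882 and 1844 against 637 and 606 CPM.

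Gene by gene, 27 of the 38 genes passed the filter on low counts (about 30.2 CPM in at least 6 embryos) and were tested with edgeR's quasi-likelihood test at an adjusted p below 0.1. Among the 4 stages, 20 of the 27 differed, where 47.1% of all 5940 tested genes did. Between 2CB with 4CB and 1C with 8CB, 21 of the 27 were called in either direction, where 55.3% of all tested genes were. All 21 were higher, where 31.3% of all tested genes were, and 0 were lower, where 24% were. DESeq2 called 22 higher and 0 lower, where it called 33.9% of all genes higher and 23.3% lower. Of the 27 genes, 9 passed the filter only through 2CB and 4CB embryos and so had to be high there, 1 passed only through 1C and 8CB, and 17 passed on both sides, of which 12 were called higher. Of all tested genes, 19.1% passed only through 2CB and 4CB and 9.63% only through 1C and 8CB, and of the 3733 that passed on both sides 23.9% were called higher. The median log2 fold change of the tested genes was 1.43, beside 0.12 over all genes tested. For 6 genes (Acat2, Hmgcs1, Pmvk, Srebf2, Elovl1 and Plin3) all 12 embryos of 2CB and 4CB exceeded all 12 of 1C and 8CB, which held for 3.54% of all tested genes, and for 0 the order was the reverse, which held for 2.21%. A called difference of at least 1 on the log2 scale was found for 16, all higher, where 33.5% of all tested genes had one in either direction. These p-values measure the spread between embryos, whose parents are not given by the labels.

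**Figure D2:**
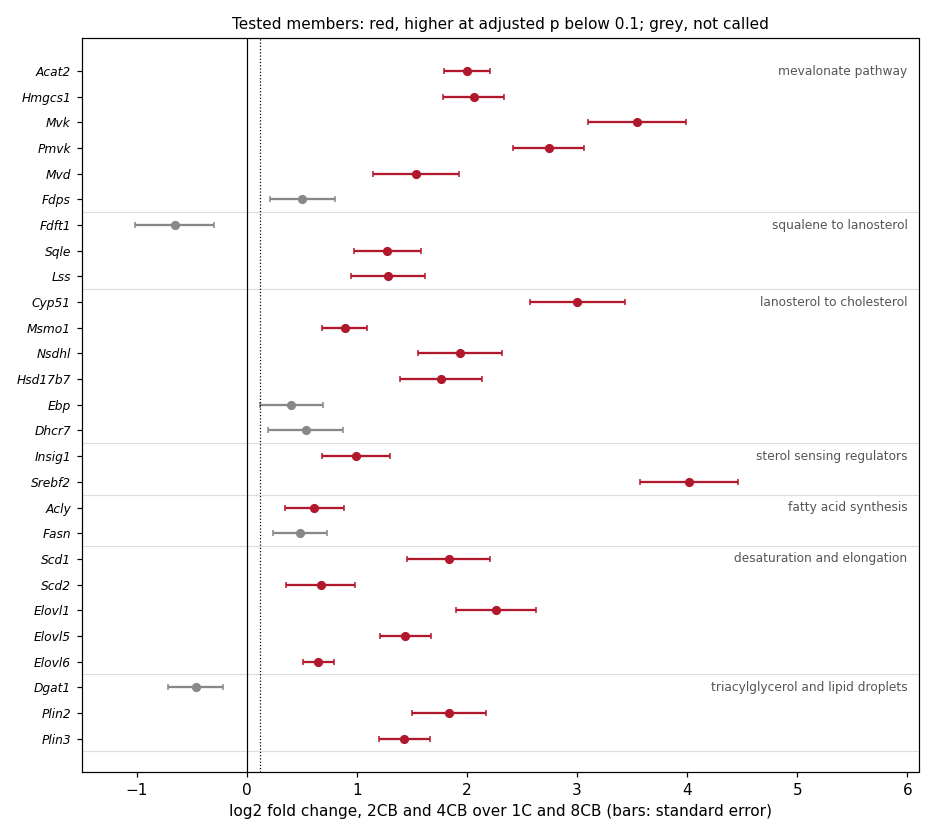
Log2 fold change of 2CB and 4CB over 1C and 8CB (horizontal axis) for the 27 tested genes, ordered by pathway step; bars are standard errors, red marks an adjusted p below 0.1 and the dotted line is the median of all tested genes, 0.12. Of the 27 points, 25 lie right of 0, from 0.40 for Ebp to 4.02 for Srebf2, while Fdft1 (-0.66) and Dgat1 (-0.46) lie left of 0 without being called.

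In the mevalonate pathway, 5 of 7 enzymes rose, 1 was not called and 1 was not tested. Of all tested genes, 31.3% were called higher. Of the 6 tested here, 2 (Mvk and Mvd) passed the filter only through 2CB and 4CB and so had to be high there. Of the 4 that passed on both sides 3 rose, where 23.9% of all such genes were called higher. Acat2, the cytosolic thiolase that joins acetyl-CoA units at the start of the pathway, was at 20.6 to 55.4 CPM in 1C (median 31.0), 24.9 to 56.4 in 8CB (median 37.9), 117 to 223 in 2CB (median 155) and 76.6 to 181 in 4CB (median 138). The groups did not overlap. The log2 fold change was 2.00 ± 0.21 (SE, n = 24 embryos, edgeR adjusted p = 7.6e-09). Hmgcs1, the cytosolic synthase that makes HMG-CoA and whose promoter is printed above, was at 8.02 to 61.8 CPM in 1C (median 41.0), 9.34 to 56.4 in 8CB (median 32.4), 67.0 to 170 in 2CB (median 127) and 110 to 217 in 4CB (median 167). Its groups did not overlap either, with a log2 fold change of 2.06 ± 0.28 (SE, edgeR adjusted p = 5.39e-07).

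Mevalonate kinase, Mvk, was nearly absent from 1C and 8CB. It was at 0 to 16.2 CPM in 1C (median 2.71) and 0 to 30.8 in 8CB (median 1.52), from 21 UMIs in 12 embryos, and at 73.0 to 107 in 2CB (median 92.3) and 30.1 to 105 in 4CB (median 77.7), from 583 UMIs. All but 1 of the 12 embryos in 2CB and 4CB lay above the highest 1C or 8CB embryo. The log2 fold change was 3.54 ± 0.44 (SE, edgeR adjusted p = 1.6e-07). The highest of the 8CB values, 30.8 CPM in embryo 1, rested on 11 UMIs, and without that embryo the log2 fold change was 4.56. Pmvk, the kinase of the next step, was at 13.7 to 178 CPM in 1C (median 23.6), 22.9 to 127 in 8CB (median 104), 289 to 949 in 2CB (median 494) and 217 to 598 in 4CB (median 445). Its groups did not overlap. Its log2 fold change was 2.74 ± 0.32 (SE, edgeR adjusted p = 6.1e-08). Mvd, the decarboxylase that makes isopentenyl diphosphate, was at 0 to 70.0 CPM in 1C (median 12.2), 0 to 81.3 in 8CB (median 44.3), 80.8 to 196 in 2CB (median 135) and 25.5 to 145 in 4CB (median 95). The groups overlapped, with 9 of 12 embryos in 2CB and 4CB above the highest 1C or 8CB embryo, and the log2 fold change was 1.54 ± 0.39 (SE, edgeR adjusted p = 0.00169).

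The other enzymes of this stretch were weaker or rarer. Fdps, the synthase of farnesyl diphosphate, had medians of 27.0, 27.7, 43.4 and 33.4 CPM in 1C, 8CB, 2CB and 4CB, and its log2 fold change of 0.50 ± 0.29 was not called (SE, edgeR adjusted p = 0.158), though it was without 8CB embryo 5 or 6 (adjusted p = 0.0769 and 0.0970). Idi1, the isomerase of isopentenyl diphosphate, did not pass the filter. Its UMIs came to 2 and 4 in 1C and 8CB against 80 and 64 in 2CB and 4CB, so that 10 of 12 embryos in 2CB and 4CB lay above the highest 1C or 8CB embryo. In the fit without a filter its log2 fold change was 3.31 ± 0.64 (SE, edgeR adjusted p = 5.69e-06). That fit called 14.2% of 23171 genes higher. Acat2 and Idi1 have near copies in the mouse genome, Acat3 and Idi2, between which the counting could have split reads.

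**Figure D3:**
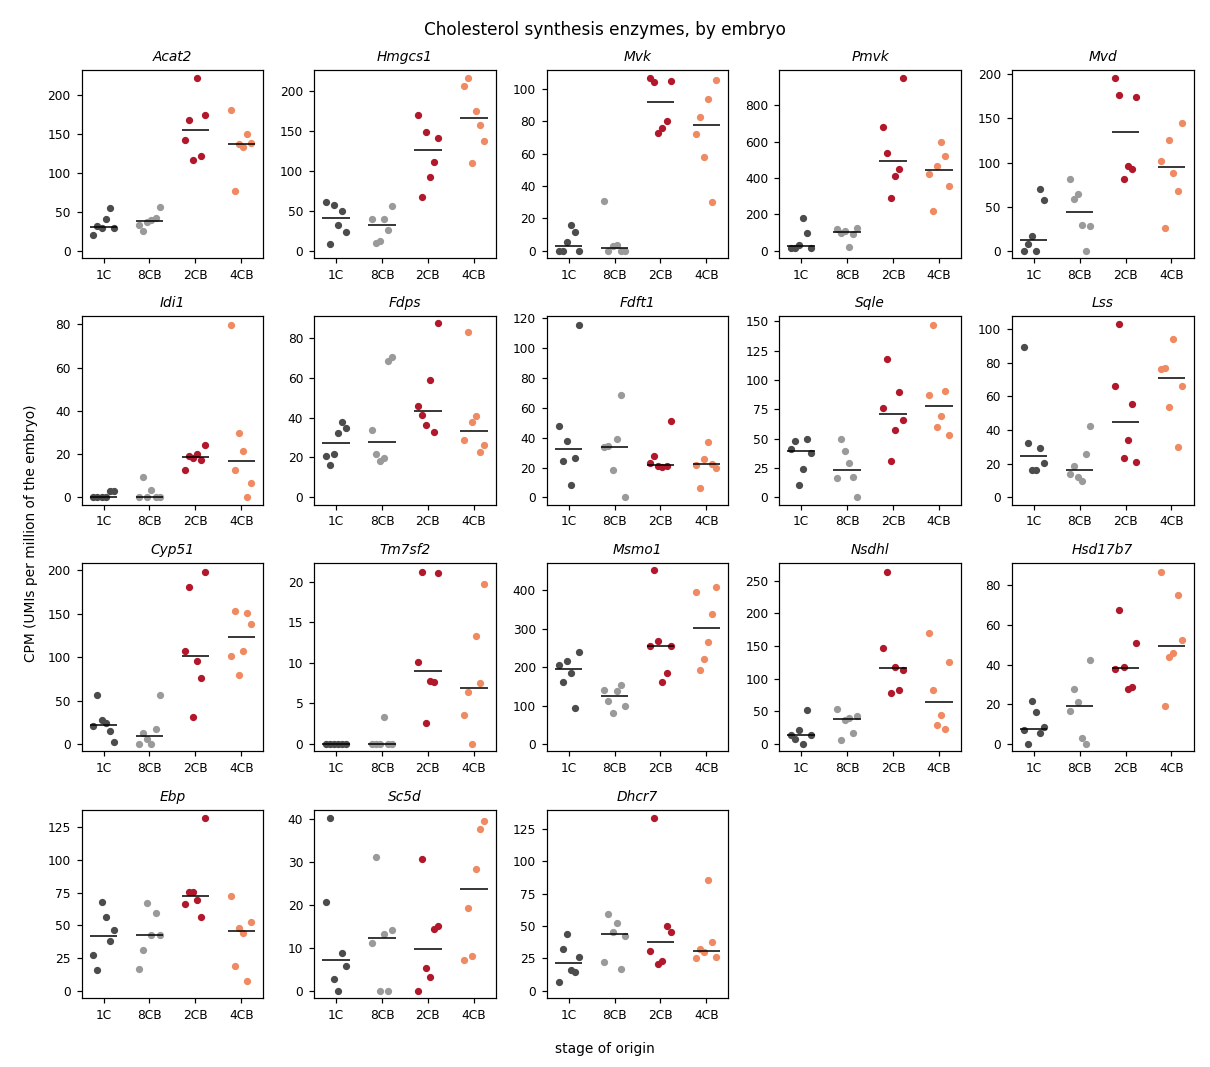
CPM per embryo (vertical axis, linear, a scale of its own in each panel) by stage of origin (horizontal axis) for the 18 cholesterol synthesis enzymes; points are embryos, 6 per stage, and lines are medians. Acat2, Hmgcs1 and Pmvk show no overlap between 1C with 8CB and 2CB with 4CB, Mvk has medians of 2.71 and 1.52 against 92.3 and 77.7, and Fdft1 shows its highest point, 115 CPM, in 1C.

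Between squalene and lanosterol, 2 of 3 enzymes rose, where 31.3% of all tested genes were called higher. Lss passed the filter only through 2CB and 4CB and so had to be high there. Fdft1 passed only through 1C and 8CB and had to be high in those, and Sqle passed on both sides. Sqle, the epoxidase that is a slow step of the pathway, was at 10.9 to 49.6 CPM in 1C (median 39.3), 0 to 49.8 in 8CB (median 23.3), 31.3 to 117 in 2CB (median 71.1) and 52.7 to 147 in 4CB (median 78.0). All but 1 of the 12 embryos in 2CB and 4CB lay above the highest 1C or 8CB embryo, and the log2 fold change was 1.28 ± 0.30 (SE, edgeR adjusted p = 0.000916). Lss, the cyclase that forms lanosterol, was at 16.2 to 89.2 CPM in 1C (median 24.7), 9.83 to 42.3 in 8CB (median 16.3), 21.0 to 103 in 2CB (median 44.8) and 30.1 to 93.8 in 4CB (median 71.0). The groups overlapped widely, and its log2 fold change of 1.28 ± 0.33 (SE, edgeR adjusted p = 0.00224) was not called once embryos were thinned to equal depth (0.94, adjusted p = 0.117). Fdft1, the squalene synthase at the head of this stretch, went the other way, with medians of 32.1 and 33.9 CPM in 1C and 8CB and of 22 and 22.2 in 2CB and 4CB. Its log2 fold change of -0.66 ± 0.36 was not called (SE, edgeR adjusted p = 0.131). Leaving out any 1 of 7 embryos (1C embryos 2, 4 and 5, 2CB embryo 6, 4CB embryo 4 and 8CB embryos 3 and 6) brought the adjusted p to 0.0739 to 0.0995. Fdft1 overlaps Ctsb on the opposite strand, a gene with 855 UMIs, and the counting is not stated to use strand.

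Past lanosterol, 4 of 8 enzymes rose, 2 were not called and 2 were not tested. Of all tested genes, 31.3% were called higher. Of the 6 tested here, 3 (Cyp51, Nsdhl and Hsd17b7) passed the filter only through 2CB and 4CB and so had to be high there. Of the 3 that passed on both sides 1 rose, where 23.9% of all such genes were called higher. Cyp51, the lanosterol demethylase, was at 2.89 to 56.1 CPM in 1C (median 22.4), 0 to 56.4 in 8CB (median 9.26), 31.3 to 198 in 2CB (median 101) and 79.7 to 153 in 4CB (median 123). All but 1 of the 12 embryos in 2CB and 4CB lay above the highest 1C or 8CB embryo. The log2 fold change was 3.0 ± 0.43 (SE, edgeR adjusted p = 1.51e-06). Akap9, with 240 UMIs, overlaps it on the opposite strand. Nsdhl, a dehydrogenase that helps to remove methyl groups from the sterol ring, was at 0 to 52.5 CPM in 1C (median 14.1), 6.23 to 53.3 in 8CB (median 37.9), 78.2 to 264 in 2CB (median 116) and 22.6 to 170 in 4CB (median 64.0). All 6 embryos of 2CB exceeded those of 1C and 8CB, which 4CB overlapped. The log2 fold change was 1.93 ± 0.38 (SE, edgeR adjusted p = 0.000117).

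Hsd17b7, the ketoreductase of the same demethylation, was at 0 to 21.7 CPM in 1C (median 7.76), 0 to 42.3 in 8CB (median 19.0), 27.9 to 67.7 in 2CB (median 38.6) and 19.1 to 87.0 in 4CB (median 49.4). The groups overlapped. Its log2 fold change was 1.76 ± 0.37 (SE, edgeR adjusted p = 0.000268). Msmo1, the methylsterol oxidase, had medians of 196, 125, 255 and 303 CPM in 1C, 8CB, 2CB and 4CB, and rose by 0.89 ± 0.20 on the log2 scale (SE, edgeR adjusted p = 0.000613). The late enzymes Ebp, the sterol isomerase, and Dhcr7, the reductase of the last step, were not called, at log2 fold changes of 0.40 ± 0.29 and 0.53 ± 0.34 (SE, edgeR adjusted p = 0.253 and 0.199). Tm7sf2, a sterol reductase, did not pass the filter, with 0 and 1 UMIs in 1C and 8CB against 57 and 21 in 2CB and 4CB. The ratio of its CPM between the pools was 34.6, with an exact 95% interval of 6.03 to 1383 that covers counting error only, and Vps51, with 64 UMIs, overlaps it on the same strand. Sc5d, a sterol desaturase that also failed the filter, had 14 and 19 UMIs in 1C and 8CB and 70 and 52 in 2CB and 4CB. Without a filter its log2 fold change of 0.45 ± 0.50 was not called (SE, edgeR adjusted p = 0.71).

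Of the 5 regulators that sense sterols, Srebf2 had the largest fold change of all 27 genes, Insig1 rose, and the other 3 did not pass the filter. Srebf2 passed the filter only through 2CB and 4CB and so had to be high there, while Insig1 passed on both sides. Of all tested genes, 31.3% were called higher. Srebf2 encodes the SREBP factor that acts mainly on cholesterol genes. It was at 0 to 46.7 CPM in 1C (median 17.8), 0 to 9.83 in 8CB (median 1.40), 81.3 to 220 in 2CB (median 150) and 75.3 to 217 in 4CB (median 104). The groups did not overlap, at 32 UMIs in the 12 embryos of 1C and 8CB against 1020 in those of 2CB and 4CB, and the fold change was 16.2, or 4.02 ± 0.45 on the log2 scale (SE, edgeR adjusted p = 2.27e-08). Insig1, which holds SCAP in the endoplasmic reticulum and is itself a target of the SREBP factors, was at 13.7 to 48.1 CPM in 1C (median 34.8), 0 to 56.4 in 8CB (median 26.5), 36.4 to 94.2 in 2CB (median 56.3) and 30.1 to 92.0 in 4CB (median 53.5). The groups overlapped, with 4 of 12 embryos in 2CB and 4CB above the highest 1C or 8CB embryo, and its log2 fold change of 0.99 ± 0.31 (SE, edgeR adjusted p = 0.00889) was not called after thinning to equal depth (0.83, adjusted p = 0.139).

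Scap, the escort of the SREBP factors, was the regulator with lower values in 2CB and 4CB. It was at 0 to 24 CPM in 1C (median 16.9), 18.2 to 56.4 in 8CB (median 28.3), 0 to 16.3 in 2CB (median 12.7) and 3.62 to 15.1 in 4CB (median 8.60), and all 6 embryos of 8CB exceeded those of 2CB and 4CB. Scap was not tested under the filter. Without a filter its log2 fold change was -1.16 ± 0.48 (SE, edgeR adjusted p = 0.0742), in a fit that called 9.61% of genes lower, and among genes with at least 5 UMIs in 12 embryos it was -1.19 ± 0.38 (adjusted p = 0.0111). Srebf1, which encodes the SREBP factors of fatty acid synthesis, was rare, at 0 to 8.14 CPM in 1C (median 1.44), 0 to 14.1 in 8CB (median 7.38), 1.55 to 13.4 in 2CB (median 9.45) and 0 to 22.6 in 4CB (median 9.96). All 4 stages overlapped, its log2 fold change without a filter was 0.87 ± 0.66 (SE, edgeR adjusted p = 0.447), and Rai1, with 134 UMIs, overlaps it on the opposite strand. Insig2, the second INSIG gene, was at 0 to 10.9 CPM in 1C (median 0), 0 to 12.5 in 8CB (median 1.64), 0 to 7.30 in 2CB (median 3.22) and 0 to 32.9 in 4CB (median 4.76). With 14 UMIs in 1C and 8CB and 35 in 2CB and 4CB its difference was not detectable at this depth, at 0.44 ± 0.72 without a filter (SE, edgeR adjusted p = 0.925).

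In the building of fatty acids, 1 of 3 genes was called, with a small change. Acly, which makes cytosolic acetyl-CoA from citrate, had medians of 58.1, 56.1, 58.9 and 97.0 CPM in 1C, 8CB, 2CB and 4CB, and a log2 fold change of 0.61 ± 0.27 (SE, edgeR adjusted p = 0.0603). That call was lost without 1C embryo 3, 2CB embryo 2, 4CB embryo 4 or 8CB embryo 3, at adjusted p of 0.105 to 0.18. Fasn, the fatty acid synthase, was at 32.1 to 80.9 CPM in 1C (median 66.2), 42.6 to 137 in 8CB (median 96.2), 109 to 201 in 2CB (median 145) and 47.1 to 184 in 4CB (median 49.9). It differed among the 4 stages (edgeR adjusted p = 0.00767), whereas its log2 fold change between the pools, 0.48 ± 0.24, was not called (adjusted p = 0.106, DESeq2 adjusted p = 0.0711). That value passed without any 1 of 9 embryos (1C embryos 4 and 5, 2CB embryos 2 and 5, 4CB embryos 1 to 4 and 8CB embryo 1), at adjusted p of 0.0673 to 0.0996. Acaca, the carboxylase that makes malonyl-CoA, did not pass the filter, with 30 UMIs in 1C and 8CB and 129 in 2CB and 4CB and a log2 fold change without a filter of 0.86 ± 0.49 (SE, edgeR adjusted p = 0.249).

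Of the 7 genes of desaturation and elongation, 5 were tested and all 5 rose, where 31.3% of all tested genes were called higher. Scd1 and Elovl1 passed the filter only through 2CB and 4CB and so had to be high there. The 3 that passed on both sides all rose, where 23.9% of all such genes were called higher. Scd1, a stearoyl-CoA desaturase that makes monounsaturated fatty acids, was at 8.66 to 99.2 CPM in 1C (median 27.1), 0 to 45.6 in 8CB (median 21.6), 81.3 to 257 in 2CB (median 111) and 37.7 to 194 in 4CB (median 84.5). The groups overlapped, and the log2 fold change was 1.83 ± 0.38 (SE, edgeR adjusted p = 0.000214). Scd2, its near copy with which reads may be shared, reached 324 CPM in 1 of the 1C embryos beside a 1C median of 67.4. Its log2 fold change of 0.67 ± 0.31 (SE, edgeR adjusted p = 0.0754) was not called without any 1 of 9 embryos (1C embryos 1, 2, 3 and 6, 2CB embryo 2, 4CB embryos 3 and 4, and 8CB embryos 2 and 6), at adjusted p of 0.107 to 0.219.

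Among the elongases, Elovl1, which acts on very long saturated chains, was at 0 to 20.6 CPM in 1C (median 13.8), 0 to 28.2 in 8CB (median 7.54), 35.6 to 62.6 in 2CB (median 46.6) and 39.9 to 57.4 in 4CB (median 45.6). Its groups did not overlap, and the log2 fold change was 2.26 ± 0.36 (SE, edgeR adjusted p = 7.47e-06). Cdc20, with 40 UMIs, overlaps it on the opposite strand. Elovl5, which extends polyunsaturated chains, was at 20.6 to 128 CPM in 1C (median 88.3), 53.3 to 146 in 8CB (median 84.9), 145 to 405 in 2CB (median 196) and 174 to 364 in 4CB (median 261). All but 1 of the 12 embryos in 2CB and 4CB lay above the highest 1C or 8CB embryo. Its log2 fold change was 1.44 ± 0.23 (SE, edgeR adjusted p = 6.66e-06). Elovl6, which extends the product of fatty acid synthase, had medians of 286, 221, 469 and 370 CPM in 1C, 8CB, 2CB and 4CB and rose by 0.65 ± 0.14 on the log2 scale (SE, edgeR adjusted p = 0.000362). Fads1, a desaturase of polyunsaturated chains, had 17 UMIs in 1C and 8CB and 127 in 2CB and 4CB and did not pass the filter. Without one its log2 fold change of 1.25 ± 0.57 was not called (SE, edgeR adjusted p = 0.116). Fads2, its partner, had 0 UMIs in 24 embryos, and 3 UMIs over all of them, the limit that a count of 0 allows, would make 0.312 CPM.

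In triacylglycerol synthesis and lipid droplets, 2 coat genes rose and 1 of the acyltransferases was not called. Plin2, the perilipin that coats droplets in most cells, was at 14.4 to 222 CPM in 1C (median 58.2), 0 to 157 in 8CB (median 98.2), 223 to 544 in 2CB (median 290) and 158 to 524 in 4CB (median 257). All but 1 of the 12 embryos in 2CB and 4CB lay above the highest 1C or 8CB embryo. Its log2 fold change was 1.84 ± 0.34 (SE, edgeR adjusted p = 5.47e-05). Plin3, a perilipin that also occurs free in the cytosol and whose promoter is printed above, was at 40.7 to 117 CPM in 1C (median 65.6), 34.1 to 113 in 8CB (median 69.1), 136 to 330 in 2CB (median 209) and 140 to 290 in 4CB (median 171). Its groups did not overlap, and the log2 fold change was 1.43 ± 0.23 (SE, edgeR adjusted p = 9.39e-06).

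Of the enzymes that make and break triacylglycerol, Dgat1 was tested and not called, and Dgat2 and Pnpla2 did not pass the filter. Dgat1, an acyltransferase of the last step of triacylglycerol synthesis, had medians of 100.3, 112, 79.9 and 69.0 CPM in 1C, 8CB, 2CB and 4CB, with a log2 fold change of -0.46 ± 0.25 that was not called (SE, edgeR adjusted p = 0.127). It was called lower without 1C embryo 1 or 6, 2CB embryo 5 or 8CB embryo 1 or 4, at adjusted p of 0.0652 to 0.0996. Dgat2, the other acyltransferase of that step, had 48 UMIs in 1C against 5 in 8CB, beside 29 and 30 for 2CB and 4CB. Its level was 2.89 to 75.5 CPM in 1C (median 37.6), 0 to 14.1 in 8CB (median 3.11), 2.54 to 9.57 in 2CB (median 5.46) and 0 to 26.4 in 4CB (median 7.39). The 1C and 8CB embryos overlapped, and without a filter Dgat2 was lower in 8CB than in 1C by a log2 fold change of -3.19 ± 0.85 (SE, edgeR adjusted p = 0.0567), in a fit that called 0.449% of genes for that pair of stages. Pnpla2, the lipase that starts the breakdown of stored triacylglycerol, had 42 UMIs in 1C and 8CB and 82 in 2CB and 4CB and was not called without a filter (log2 fold change -0.26 ± 0.51, SE; edgeR adjusted p = 1.00).

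**Figure D4:**
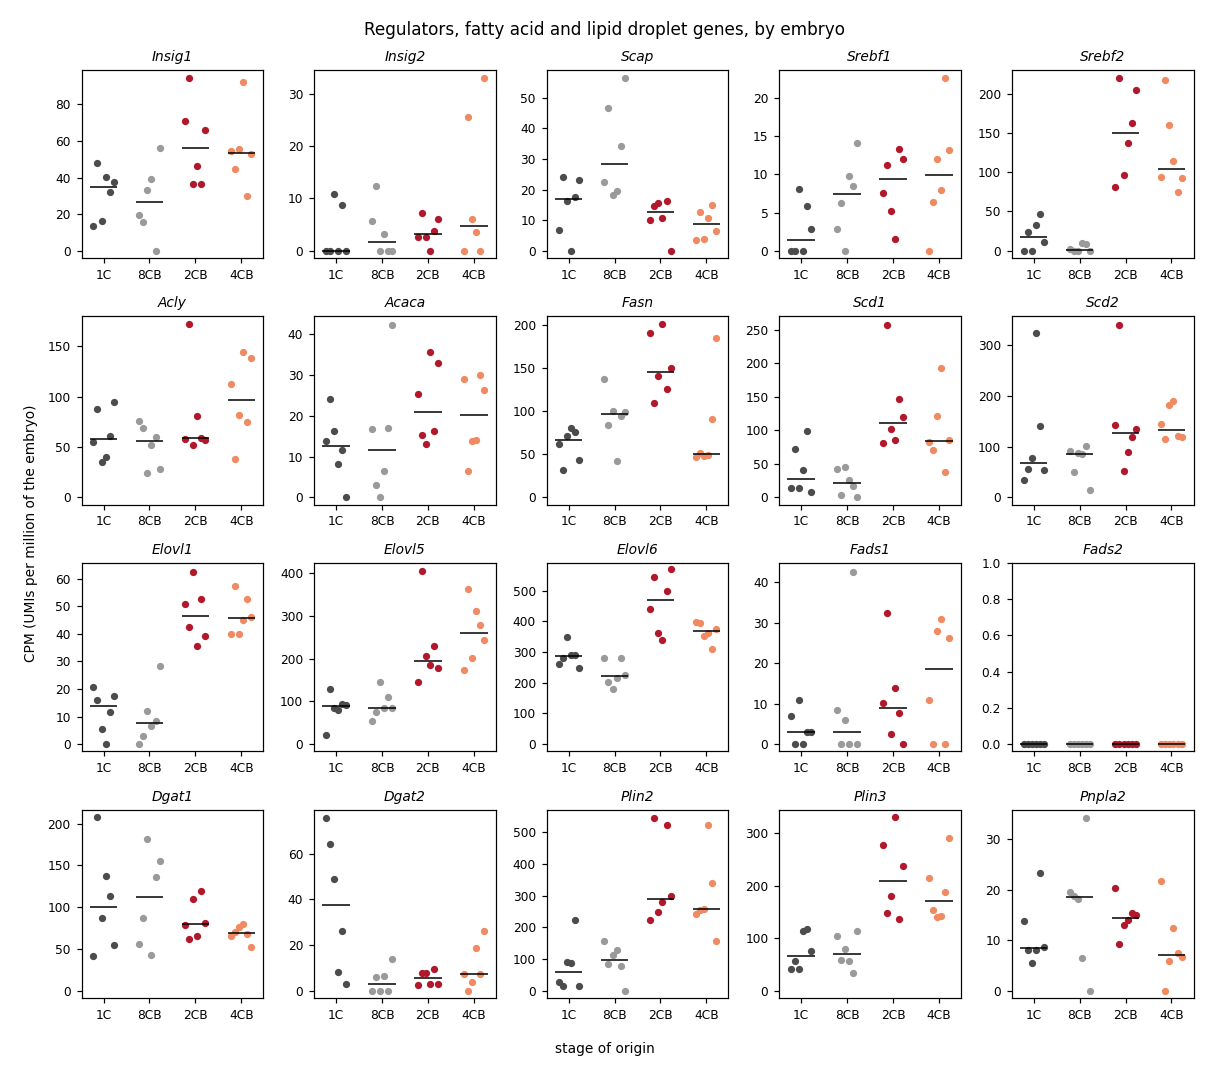
CPM per embryo (vertical axis, linear, a scale of its own in each panel) by stage of origin (horizontal axis) for the 5 regulators and the 15 fatty acid and droplet genes; points are embryos, 6 per stage, and lines are medians. Srebf2, Elovl1 and Plin3 show no overlap between 1C with 8CB and 2CB with 4CB, Fasn is lowest in 1C and 4CB by its medians of 66.2 and 49.9, Dgat2 has its highest median, 37.6, in 1C, and Fads2 is at 0 throughout.

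Within a pool the stages could be compared without the pool entering. For 8CB against 1C, edgeR called 0 of the 27 genes, where 0% of all tested genes were called, and DESeq2 also called 0 of the 27, where it called 0.724% of all. At an unadjusted p below 0.05 there was 1 of the 27 genes, where 9.26% of all tested genes passed. That gene was Srebf2, lower in 8CB by a log2 fold change of -2.33 ± 0.82 (SE, edgeR unadjusted p = 0.0081, adjusted p = 0.323), from 27 UMIs in 1C and 5 in 8CB. Of those 27, 16 came from 1C embryo 5 and 4 from 1C embryo 4, while 1C embryos 1 and 3 held 0. For 4CB against 2CB, edgeR called 0 of the 27, where 0.0337% of all tested genes were called, and DESeq2 called 0, where it called 0.168% of all. At an unadjusted p below 0.05 there were 2 genes, where 4.43% of all tested genes passed: Ebp (-0.92 ± 0.39) and Fasn (-1.08 ± 0.34, edgeR unadjusted p = 0.0034). Fasn was called lower in 4CB than in 2CB once 4CB embryo 6, the embryo at 184 CPM, was left out (adjusted p = 0.0736). The median log2 fold change of the 27 genes was -0.01 for 8CB against 1C and -0.27 for 4CB against 2CB, beside 0.00 and -0.01 over all genes tested.

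Both pairs of stages that cross the pools were also set against each other, as the difference of 4CB minus 8CB from 2CB minus 1C. edgeR called 0 of the 27 genes for this difference, where 0% of all tested genes were called, and 2 had an unadjusted p below 0.05, where 8.96% of all had. Fasn differed by -1.69 ± 0.49 on the log2 scale (SE, edgeR unadjusted p = 0.00169, adjusted p = 0.254), being high in 2CB and 8CB relative to 4CB and 1C. Srebf2 differed by 2.04 ± 0.94 (SE, edgeR unadjusted p = 0.0387, adjusted p = 0.528), which rests in part on the same few 1C and 8CB UMIs as above. DESeq2 was not run for this difference.

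Variation between embryos of the same stage was described with the stage means taken off. The mean Pearson correlation of log2 CPM over the 24 embryos was 0.046 among the 15 tested cholesterol enzymes, 0.035 among the 10 tested fatty acid and droplet genes and 0.051 between these sets, beside 0.011 over all pairs of tested genes. With a prior count of 0.5 in place of 2 in the log2 values it was 0.029 among the cholesterol enzymes, beside 0.015 over all pairs. There were 105 pairs among the cholesterol enzymes, 45 among the fatty acid and droplet genes and 150 between the sets. The extremes of these are given here. The pairs with the highest values joined a droplet coat and the desaturases, at 0.74 for Plin2 with Scd2, 0.65 for Scd2 with Scd1, which may share reads, and 0.63 for Plin2 with Scd1. The pair with the lowest was Elovl1 with Mvk at -0.69. These are descriptions over embryos that share libraries and differ in depth.

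Other genes of lipid metabolism were taken from lists made by role. Of the 43 that were tested, 16 passed the filter only through 2CB and 4CB and so had to be high there, and of the 22 that passed on both sides 11 were called higher. Over all tested genes, 31.3% were called higher in 2CB and 4CB and 24% lower. Of 19 genes of sterol sensing, uptake and transport, 11 were tested, of which 7 rose and 2 fell, and 4 of the 11 had passed only through 2CB and 4CB. The falls were Nr1h2, a nuclear receptor for oxysterols, and Npc2, a lysosomal cholesterol carrier, at -1.39 ± 0.20 and -1.23 ± 0.14 (SE, edgeR adjusted p = 2.14e-06 and 4.01e-08). Of 16 genes of fatty acid supply and activation, 9 were tested, of which 7 rose and 1 fell, and 2 of the 9 had passed only through 2CB and 4CB. Slc25a1, the mitochondrial citrate carrier, had the largest rise, at 5.74 ± 0.62 on the log2 scale (SE, edgeR adjusted p = 5.57e-08), from 9 UMIs in 1C and 8CB. Hacd2 and Acsl3 rose by 1.68 and 1.67, and Acsl4, an acyl-CoA synthetase, fell by 2.02 (edgeR adjusted p = 1.37e-06, 2.85e-05 and 0.000442).

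Of 22 glycerolipid and droplet genes, 9 were tested, of which 5 rose and 3 fell. Of the 9, 5 passed only through 2CB and 4CB, and of the 2 that passed on both sides 1 rose. The rises were led by Hilpda, a droplet protein that inhibits lipolysis, Mgll, the lipase of monoacylglycerol, and Bscl2, which encodes the droplet assembly protein seipin, at 2.22, 2.1 and 1.58 on the log2 scale (edgeR adjusted p = 7.8e-05, 6.43e-05 and 1.8e-05). The falls were Agpat5, Lpin1 and Gpat3, which act in the making of phosphatidic acid and diacylglycerol, at -1.60, -1.53 and -1.38 on the log2 scale (edgeR adjusted p = 1.8e-05, 0.0161 and 2.98e-05). Of 18 genes of fatty acid oxidation, 14 were tested, of which 6 rose and 1 fell, while 55.3% of all tested genes were called in either direction. Of the 14, 5 passed only through 2CB and 4CB, and of the 8 that passed on both sides 2 rose, or 25%, against 23.9% of all such genes. Decr1, Acaa2 and Echs1, enzymes of mitochondrial oxidation, rose by 3.84, 1.94 and 1.47, and Slc25a20, the acylcarnitine carrier, fell by 0.85 on the log2 scale (edgeR adjusted p = 8.31e-07, 1.82e-05, 0.00117 and 0.00296). The median log2 fold change was 1.02 for sterol handling, 1.06 for fatty acid supply, 1.27 for glycerolipid and droplet genes and 0.53 for fatty acid oxidation, beside 1.43 for the tested genes of the 38 and 0.12 over all genes tested. Whether these lists differ was not tested.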

How the data were processed

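Single-embryo CEL-Seq2 was analysed for 24 pseudoblastocysts, 6 per stage of origin. The values deposited by the authors are raw UMI counts, whole numbers for each gene in each embryo. Per the study's methods and the submitters' processing notes, reads were aligned to GRCm38 with HISAT2 (version 2.2.6), counted with HTSeq (0.6.1), with duplicate reads of the same UMI merged, and analysed with DESeq2 (1.10.1); whether counting used strand is not given in the sources used here. Another 24 columns, named for morulae, match no listed sample and were not used. Ensembl identifiers were named from GENCODE M21.

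Stages were read from the column names and pools from the labels; the replicate is the embryo. Counts were fitted with edgeR 4.0.16 (R 4.3.3): TMM factors of 0.928 to 1.07, the filterByExpr filter, 1 mean per stage, quasi-likelihood tests over 5940 genes and Benjamini-Hochberg adjustment, called below 0.1, the threshold of the study. The common biological coefficient of variation was 0.442. Standard errors were taken from the test statistic. Totals of 70941 to 1507471 UMIs set the precision; 3 UMIs make 1.02 CPM over 1C and 8CB and 0.451 CPM over 2CB and 4CB. Embryo numbers did not pair embryos, with a mean residual correlation of -0.016 over 36 same-numbered pairs. The fitting was tested on simulated counts. DESeq2 1.42.0, another scaling, other filters, thinning to 70941 UMIs, a stricter threshold, an embryo-number block and leaving embryos out were tried.

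Each of the 38 genes is named; full values go to those called between the pools at 1 or more on the log2 scale, to the 5 regulators and to any called within a pool. In each related list up to 3 called genes each way are named by the largest change. The genes with the largest rises in the sterol handling list are not reported here. The genes and lists were chosen with earlier results of these data known. Motifs were searched in the RefSeq promoter table (GRCm38.p6); no set test was run.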

Additional observations from a re-analysis of the deposited data

Results flagged for a closer look

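In 116 groups of 6 embryos (22 genes given in full and 7 summed levels in each of 4 stages), 9 held an embryo whose gap to its nearest neighbour, as a share of the group's range, passed Dixon's 95% limit, where chance flags about 1 in 20 groups. Mvk stood at 30.8 CPM (11 UMIs) in 8CB embryo 1, beside 3.28 in the next highest. Pmvk stood at 22.9 CPM (7 UMIs) in 8CB embryo 4, below 93.8 in the next lowest. Lss stood at 89.2 CPM (13 UMIs) in 1C embryo 1, beside 32.1 in the next. Cyp51 stood at 56.4 CPM (4 UMIs) in 8CB embryo 6, beside 17.1 in the next. Nsdhl and Elovl5 stood at 264 and 405 CPM in the same embryo, 2CB embryo 2, beside 147 and 231 in the next highest embryos. Fasn stood at 184 CPM (28 UMIs) in 4CB embryo 6, beside 90.4 in the next. Plin2 stood at 222 CPM (76 UMIs) in 1C embryo 5, beside 89.6 in the next. The summed cumulus cell markers stood at 166 CPM in 4CB embryo 5, beside 72.5 in the next, all of it from Star.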

How the results depend on the processing

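The median log2 fold change of the tested genes between the pools stayed between 1.25 and 1.48 under the alternatives that kept all 24 embryos, and between 1.31 and 1.47 when 1 embryo was left out. The number of genes called higher ran from 17 after thinning to equal depth to 22 with DESeq2, and from 19 to 22 with 1 embryo left out. The number called lower was 1 in place of 0 without a filter on low counts and with at least 5 UMIs in 12 embryos (Scap in both), and 1 when 1C embryos 4 and 5, known from earlier results to lie nearest the other pool, were both left out (Fdft1); with 1 embryo left out it ran from 0 to 1. For 8CB against 1C, 1 gene in place of 0 was called without a filter (Dgat2), and 0 to 0 with 1 embryo left out; for 4CB against 2CB, 0 to 1 were (Fasn, without 4CB embryo 6). The number differing among the stages ran from 16 after thinning to 22 without a filter, and from 19 to 21 with 1 embryo left out. Thinning lost the calls of Lss, Insig1, Acly and Scd2, and Acly was also not called without a filter or without 1C embryos 4 and 5. The cause of these changes was not tested. With embryo number as a replicate block, 21 genes were called higher and 0 lower, and the block changed no other call between the pools or within them; 21 in place of 20 differed among the stages. Over the 27 genes, leaving out 1 embryo kept the verdict in 612 cases, lost a call in 13 and added a call in 23, in Acly, Scd2, Fasn, Fdft1, Dgat1 and Fdps, and no fold change turned its sign. Depth limits what can be said of the 11 genes that failed the filter, which held 0 to 144 UMIs on either side.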
